A study of Mus musculus with 18 samples.

Results

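Panx2, Hmga1, Amz1, Ttc9b, Wsb2, Hey1, Pmepa1, Furin, Ehd1 and Snn are 10 transcripts outside the lipid pathways that had been picked from earlier results of these data because their read counts differed when the neuronal FT knockout was added to APP/PS1 mice. They are 10 of the 55487 genes of the deposited count table, and all 10 passed the filter on low counts that left 17414 genes for testing. The difference between these genotypes, and each genotype's difference from WT, which shares mice with it, are therefore given below as descriptions without a test. Tests were made on other contrasts and other genes, namely the sexes, the interaction of sex and knockout, RNA integrity, the paralogs and pathway partners of the 10 genes and their neighbours on the chromosome.

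RNA had been taken from the frontal cortex of 18 mice aged 9 to 10 months, with 6 mice per genotype and 3 females and 3 males in each. APP/PS1 mice carry a transgene that makes them a model of amyloid deposition, on a mixed B6C3 background. APP/PS1/FTnKO mice carry the same transgene and lack the β-subunit of farnesyltransferase (FT), encoded by Fntb, in forebrain neurons, where Cre under the CaMKIIα promoter deletes the homozygous floxed allele after birth. WT mice carry neither transgene nor Cre. The study's methods describe all genotypes as littermates homozygous for the floxed allele, whereas the record of the data gives C57BL/6J, and which strain background WT mice had was not settled. Cre acts in excitatory neurons and the RNA is from whole tissue, so a change in neurons is diluted by other cells, and fewer cells of a type and less RNA per cell cannot be told apart.

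FT attaches a farnesyl lipid to the C-terminal cysteine of proteins such as Ras, Rheb and the nuclear lamins, which brings them to membranes. The 10 transcripts encode proteins with unrelated roles. Panx2 is a pannexin, a family of large-pore membrane channels. Hmga1 is an architectural chromatin protein that binds AT-rich DNA, and Hey1 is a basic helix-loop-helix repressor that Notch signalling induces. Pmepa1 is a membrane protein that holds back SMAD signalling downstream of TGF-β. Furin and Amz1 are proteases, the former a proprotein convertase of the Golgi and the latter a zinc metalloprotease. Ehd1 drives the recycling of endocytosed receptors, Wsb2 is the substrate adaptor of a Cullin-5 ubiquitin ligase, Ttc9b is a tetratricopeptide repeat protein and Snn (stannin) is a small membrane protein known for its part in organotin toxicity.

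APP/PS1/FTnKO mice are also called knockout mice below. Levels are CPM, read counts relative to the library size scaled with the TMM method of edgeR. Total counts were 15925432 to 21030935 per mouse. Per length of annotated exon, as mean RPKM over 17 mice, Snn (76.3), Wsb2 (46.2), Panx2 (31.5) and Ttc9b (29.2) had the highest levels, with Ttc9b above 90.8% of the tested genes. Hey1 (15.5), Pmepa1 (11.5), Ehd1 (9.06) and Hmga1 (7.11) lay in the middle, and Furin (4.39) and Amz1 (3.54) had the lowest RPKM. Fntb, the targeted gene, had 7.84 to 14.7 CPM (median 12.6) in APP/PS1/FTnKO, 14.2 to 32.1 (median 15.8) in APP/PS1 and 14.1 to 32.2 in 5 WT mice, a log2 fold change between the transgenic genotypes of -0.77 (SE 0.26, adjusted p = 0.251, edgeR). The ranges overlapped, and the genotype labels were not checked in any other way.

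WT mouse 19622 was treated apart. For 55.4% of the 17285 genes tested over 18 mice, its value lay outside the range of the other 17. Its summed CPM over 5 cerebellar markers was 1952, against 4.22 to 11.5 in the others, and over 6 markers of cortical excitatory neurons it was 448, against 3810 to 6924. On the scaling of all 18 mice, 8 of the 10 transcripts were outside the range of the other mice, for example Amz1 with 5.49 CPM (others 16.7 to 36.6), Ttc9b with 17.8 (43.3 to 79.3) and Ehd1 with 86.2 (28.1 to 38.0), and Hmga1 and Hey1 (40.5) were inside. All values that follow are from the other 17 mice unless stated.

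**Figure D1:**
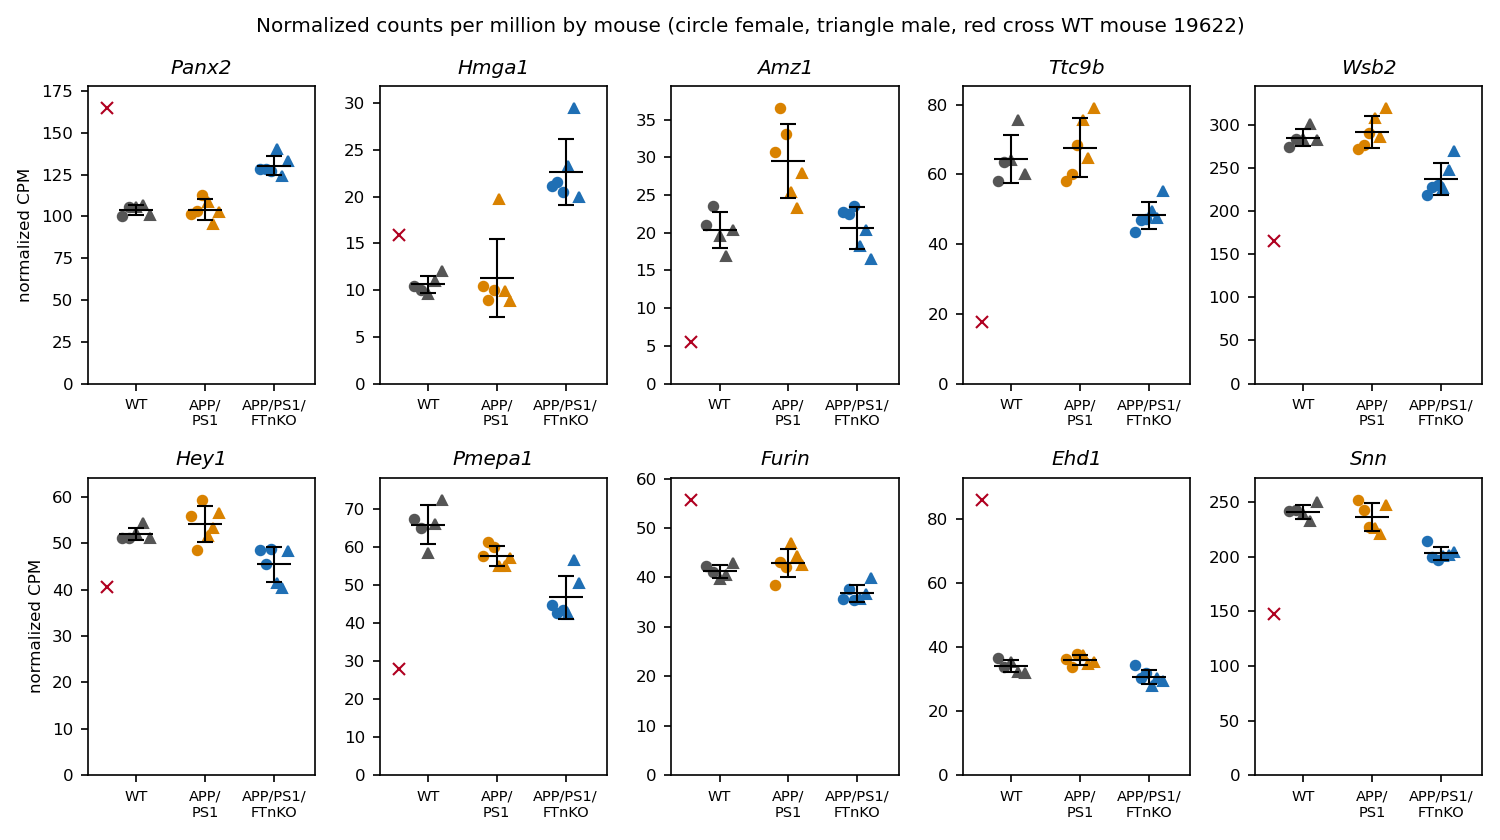
Normalized CPM of the 10 transcripts in each mouse (y axis, from 0) by genotype (x axis), with females as circles, males as triangles and the mean ± SD of each genotype as black bars; WT mouse 19622, on the scaling of 18 mice, is a red cross and enters no mean. Leaving 19622 aside, the APP/PS1/FTnKO mice lie above all others for Panx2 and Hmga1 and below all others for Ttc9b, Wsb2 and Snn.

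The plot of CPM by mouse shows how the genotypes separated. Panx2 and Hmga1 were higher in every APP/PS1/FTnKO mouse than in any APP/PS1 or WT mouse. Ttc9b, Wsb2 and Snn were lower in every APP/PS1/FTnKO mouse than in any mouse of the other genotypes, and Hey1 and Pmepa1 were lower than in any WT mouse while overlapping with APP/PS1. Since the genes were picked on the first of these differences, nothing is read from it. Across all 17414 tested genes, 0.597% were higher without overlap in knockout than in APP/PS1 mice and 0.373% lower, while against WT the shares were 2.75% and 2.85%. Between APP/PS1 and WT mice none of the 10 was free of overlap, with 1.71% of all tested genes higher without overlap in APP/PS1 and 0.695% lower. The median log2 difference of the 10 between knockout and APP/PS1 mice was -0.24, against -0.0016 for all tested genes, as their choice entails.

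Panx2 had 124 to 140.4 CPM in APP/PS1/FTnKO mice (median 128), 95.3 to 113 in APP/PS1 mice (median 103), and 100.5, 101, 106, 106 and 107 in the 5 WT mice. The WT mice lay within the wider range of the APP/PS1 mice, and the knockout mice stood above both. The means were 130.3 ± 5.76, 104 ± 6.19 and 104 ± 3.01 CPM (SD, n = 6, 6 and 5), so that the log2 difference was 0.32 (SE 0.04) against APP/PS1 and 0.33 (SE 0.05) against WT, and 0.0011 (SE 0.05) between APP/PS1 and WT. Panx2 lies at chr15:89059734-89073567 on the plus strand (GRCm38), where its downstream end overlaps an antisense transcript. Panx1, its paralog, had 15.8 CPM in knockout and 17.1 in APP/PS1 mice (log2 difference -0.12, SE 0.08, adjusted p = 0.628, edgeR), and Panx3 was too low to be tested.

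Snn had 198 to 215 CPM in APP/PS1/FTnKO mice (median 201), 221 to 253 in APP/PS1 mice (median 235), and 233, 239.9, 242, 243 and 250.2 in the WT mice. This was the reverse of Panx2, with the knockout mice in a narrow band below the rest. Its log2 difference was -0.22 (SE 0.04) between the transgenic genotypes and -0.03 (SE 0.04) between APP/PS1 and WT. The gene lies at chr16:11060945-11074985 on the plus strand and overlaps Litaf and Txndc11 on the other strand.

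Ttc9b had 43.3 to 55.1 CPM in APP/PS1/FTnKO mice (median 47.3), 58.1 to 79.0 in APP/PS1 mice (median 66.6), and 58.2, 60.0, 63.6, 64.2 and 75.7 in the WT mice. Its log2 difference was -0.48 (SE 0.07) between the transgenic genotypes and 0.09 (SE 0.07) between APP/PS1 and WT. Wsb2 had 219 to 269 CPM in APP/PS1/FTnKO mice (median 229), 272 to 319 in APP/PS1 mice (median 288), and 274, 282, 283, 284 and 301 in the WT mice. The mice ranked alike for these genes: mouse 18943 was lowest and 19720 highest among the knockout mice for both, mouse 19553 lowest and 19744 highest among APP/PS1 mice, and 18944 lowest and 19718 highest among WT mice. Over the 17 mice Pearson's r of their log2 CPM was 0.96, each being the gene most like the other among the 14074 compared, and with genotype and sex taken out it was 0.78, the highest of the pairs among the 10 transcripts. These are descriptions over 17 libraries that share genotypes, and carry no p. Among the 28 pairs of genes that were both lower in the knockout, the residual r ranged from -0.39 (Amz1 and Hey1) to this 0.78, with 14 above 0.

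The promoters of Ttc9b and Wsb2, from 250 bases before to 50 bases after the start (RefSeq, GRCm38.p6), are shown because their levels moved together over mice. That of Ttc9b, at chr7:27653674-27653973 on the plus strand, holds the RBPJ motif TGGGAA on the reverse strand, in capitals. The motif begins 5 bases before the start and reaches to it, and 25.6% of 32851 promoters of this length hold it in either orientation. That of Wsb2, at chr5:117357055-117357354 on the plus strand, is 79.0% G and C with 40 CpGs, more CpGs than 96.1% of all promoters, and none of the motifs searched is in it.
Ttc9b: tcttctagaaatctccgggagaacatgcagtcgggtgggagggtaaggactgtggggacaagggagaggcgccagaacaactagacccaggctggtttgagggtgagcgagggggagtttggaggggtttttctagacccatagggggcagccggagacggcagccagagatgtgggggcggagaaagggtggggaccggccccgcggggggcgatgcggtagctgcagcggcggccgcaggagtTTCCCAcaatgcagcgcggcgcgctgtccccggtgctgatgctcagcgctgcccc
Wsb2: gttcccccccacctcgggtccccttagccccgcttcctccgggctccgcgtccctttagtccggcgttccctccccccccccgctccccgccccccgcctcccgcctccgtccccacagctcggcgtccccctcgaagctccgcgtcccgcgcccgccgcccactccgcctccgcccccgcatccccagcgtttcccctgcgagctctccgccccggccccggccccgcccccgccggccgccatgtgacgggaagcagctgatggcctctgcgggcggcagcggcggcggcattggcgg
The motifs searched on both strands were the E-box CACGTG (7.15% of promoters), the CRE TGACGTCA (1.79%), AP-1 TGANTCA (7.81%), RBPJ TGGGAA, SMAD CAGACA (21.04%) and NRF1 by name (0.971%). Of 10 transcripts, 6 had 8 promoters in the table: SMAD CAGACA was in both Furin promoters, the E-box in that of Snn, and no motif in those of Hmga1 and Amz1. A match is a string of letters and no binding was measured.

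Hmga1 had the largest difference of the 10, but it has a near-identical copy, and the share of the reads of both that was counted for Hmga1 differed between mice. It had 20.0 to 29.5 CPM in APP/PS1/FTnKO mice (median 21.4), 8.82 to 19.7 in APP/PS1 mice (median 9.99), and 9.63, 10.1, 10.5, 10.9 and 11.99 in the WT mice. APP/PS1 mouse 16975, with 19.7 CPM, stood with the knockout mice and the other 5 APP/PS1 mice were between 8.82 and 10.4. The log2 difference was 1.01 (SE 0.15) between the transgenic genotypes and 0.10 (SE 0.16) between APP/PS1 and WT. Hmga1 lies at chr17:27556497-27563674 and Hmga1b, a copy without introns in its coding part, at chr11:120762794-120764419, both on the plus strand.

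The coding sequence of Hmga1b is the same, base for base, as that of 5 of the 17 annotated coding transcripts of Hmga1, and 16 of the 17 have no mismatch to it where they align. It is shown because a read that lies within it cannot be assigned to either gene by its letters. The first 300 of its 321 bases, which Hmga1 splices from 4 exons between 27559569 and 27562488 of chromosome 17 and which Hmga1b holds in 1 exon at chr11:120762889-120763209, are given from the GENCODE transcripts of GRCm38, with capitals for the 33 bases that the shorter splice form of Hmga1 (288 bases) lacks.
Hmga1 and Hmga1b: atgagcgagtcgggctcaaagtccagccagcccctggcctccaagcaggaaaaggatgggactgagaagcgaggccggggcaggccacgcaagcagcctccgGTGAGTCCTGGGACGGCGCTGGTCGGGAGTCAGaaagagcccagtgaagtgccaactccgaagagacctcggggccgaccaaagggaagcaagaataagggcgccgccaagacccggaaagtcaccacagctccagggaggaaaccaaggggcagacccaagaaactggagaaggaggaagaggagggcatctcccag
Beyond the coding part, a Hmga1 transcript of 1681 bases aligned to Hmga1b over 1602 bases with 3 mismatches, and 67.0% of its windows of 150 bases, the length of 1 read, occur unchanged in Hmga1b. Over the 17 transcripts this share ran from 2.13% to 68.3%, so that other reads can be told apart.

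Of the reads counted for either gene, Hmga1 took 61.8% to 85.2% in the APP/PS1/FTnKO mice (median 64.2%), and 33.7%, 34.6%, 36.2%, 38.2% and 39.1% in the 5 WT mice. In APP/PS1 mouse 16975 its share was 68.4% (318 of 465 reads, 95% Wilson interval 64.0% to 72.4%), and in the other 5 APP/PS1 mice it was 34.7% to 40.5%. The highest share was in APP/PS1/FTnKO mouse 18973 (517 of 607 reads, 85.2%, interval 82.1% to 87.8%), and WT mouse 19622 had 38.6% (316 of 818). The intervals cover counting error only, and those of the 7 mice above 60% do not reach those of the other 11. No mouse lay between 40.5% and 61.8%.

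Hmga1b went the other way, with 10.7 ± 2.85 CPM in APP/PS1/FTnKO, 15.4 ± 3.40 in APP/PS1 and 18.6 ± 1.22 in WT mice (SD, n = 6, 6 and 5). Its log2 difference between the transgenic genotypes was -0.52 (SE 0.17, adjusted p = 0.245, edgeR). Summed over both genes, the levels were 33.4 ± 1.47, 26.7 ± 2.13 and 29.2 ± 1.59 CPM, with 31.9 to 35.7 in the knockout, 23.7 to 28.9 in APP/PS1 and 27.8 to 31.1 in WT mice. The knockout mice were still above all others, but with the reads of both genes summed before the fit the log2 difference was 0.32 in place of 1.01. The sources used here do not give how featureCounts treated reads that map to several places, and what sets the share was not tested.

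**Figure D2:**
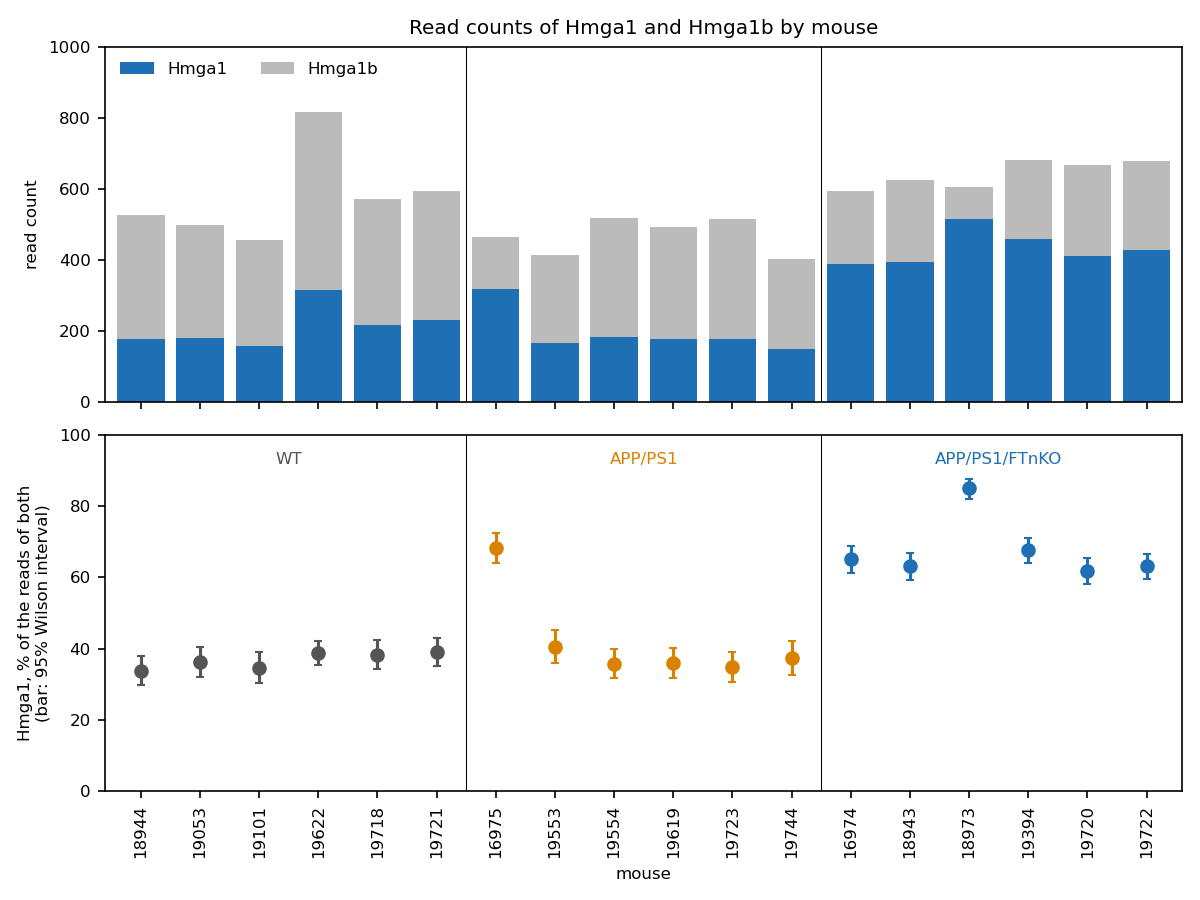
Reads counted for Hmga1 (blue) and Hmga1b (grey) in each of the 18 mice (top, read count) and the share of Hmga1 among them with its 95% Wilson interval (bottom, percent), grouped by genotype. The 6 APP/PS1/FTnKO mice and APP/PS1 mouse 16975 have shares of 61.8% to 85.2%, and the other 11 mice 33.7% to 40.5%.

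Amz1 had the largest difference of the 10 between APP/PS1 and WT mice, and its level in the knockout was that of WT. It had 16.5 to 23.6 CPM in APP/PS1/FTnKO mice (median 21.5), 23.3 to 36.5 in APP/PS1 mice (median 29.3), and 16.9, 19.6, 20.4, 21.1 and 23.6 in the WT mice. By sex, APP/PS1 females had 30.7 to 36.5 CPM, knockout females 22.5 to 23.6 and WT females 21.1 to 23.6, and APP/PS1 males had 23.3 to 27.9, knockout males 16.5 to 20.4 and WT males 16.9 to 20.4. With 2 or 3 mice in each of these sets, this is a description of these mice. The log2 difference was -0.51 (SE 0.07) between the transgenic genotypes, 0.50 (SE 0.07) between APP/PS1 and WT and -0.01 (SE 0.07) between knockout and WT. Both first values share the APP/PS1 mice, so that a high APP/PS1 group enters them with opposite signs. Amz1 lies at chr5:140724127-140761439 on the plus strand and its end overlaps Gna12 on the other strand, which was not called (log2 difference -0.04, SE 0.07, adjusted p = 0.862, edgeR). Amz2, its paralog, had 55.0 CPM in knockout and 53.0 in APP/PS1 mice (log2 difference 0.05, SE 0.05, adjusted p = 0.713).

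The mean of Pmepa1 went down from WT to APP/PS1 and again to the knockout. It had 42.5 to 56.6 CPM in APP/PS1/FTnKO mice (median 44.2), 54.9 to 61.3 in APP/PS1 mice (median 57.5), and 58.5, 65.1, 66.2, 67.4 and 72.6 in the WT mice. The steps were -0.19 (SE 0.07) from WT to APP/PS1 and -0.31 (SE 0.07) from there to the knockout on the log2 scale. All 3 knockout females, at 42.7 to 44.9 CPM, were below the APP/PS1 females at 57.7 to 61.3, whereas knockout males reached from 42.5 to 56.6 and overlapped with the APP/PS1 males at 54.9 to 57.3. The gene lies at chr2:173224458-173276533 on the minus strand and overlaps no other annotated gene.

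Hey1 had 40.3 to 48.7 CPM in APP/PS1/FTnKO mice (median 46.9), 48.5 to 59.4 in APP/PS1 mice (median 54.6), and 51.1, 51.2, 51.2, 52.3 and 54.3 in the WT mice. A single APP/PS1 mouse, 19554 with 48.5 CPM, reached into the range of the knockout, and its log2 difference was -0.25 (SE 0.06) between the transgenic genotypes. Hey1 lies at chr3:8663359-8667256 on the minus strand and overlaps no other annotated gene. Its paralogs Hey2 (5.09 against 6.24 CPM in knockout and APP/PS1 mice, adjusted p = 0.574) and Heyl (7.67 against 6.73, adjusted p = 0.824) were not called by edgeR.

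Furin had 35.5 to 39.9 CPM in APP/PS1/FTnKO mice (median 36.2), 38.5 to 47.1 in APP/PS1 mice (median 42.9), and 39.7, 40.4, 41.1, 42.3 and 43.0 in the WT mice. Ehd1 had 28.0 to 34.5 CPM in APP/PS1/FTnKO mice (median 30.3), 34.0 to 38.0 in APP/PS1 mice (median 35.8), and 32.0, 32.3, 33.9, 35.4 and 36.5 in the WT mice. Both overlapped by 1 or more mice with each of the other genotypes, and their log2 differences between the transgenic genotypes were -0.22 (SE 0.05) for Furin and -0.23 (SE 0.05) for Ehd1. Furin lies at chr7:80388585-80405436 on the minus strand and Ehd1 at chr19:6276725-6300096 on the plus strand.

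**Figure D3:**
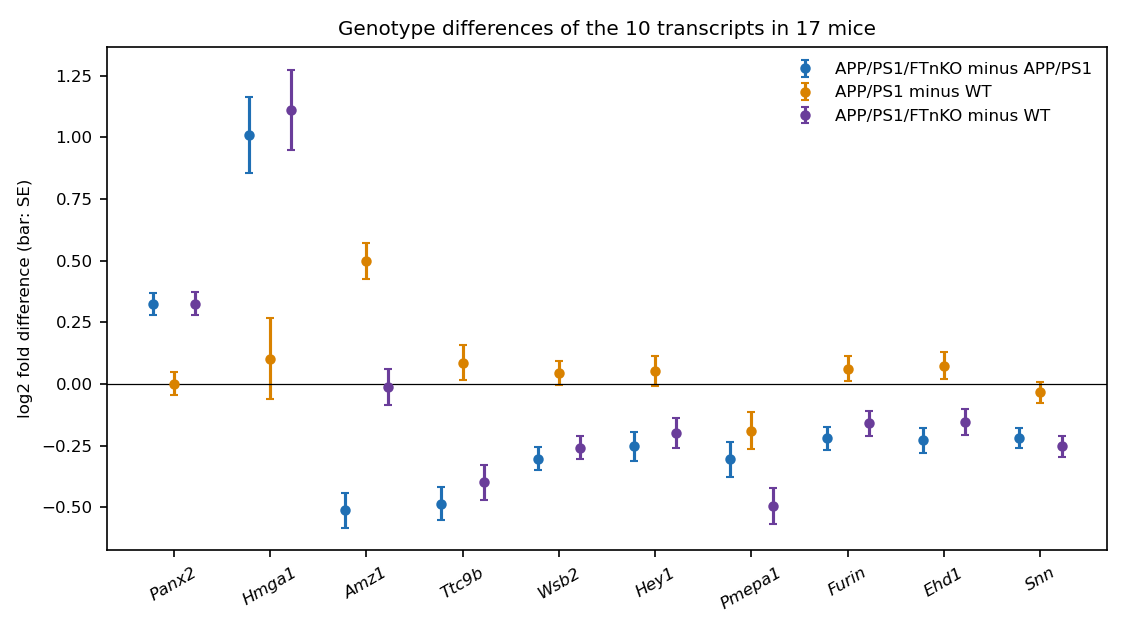
Log2 differences of the 10 transcripts between the genotypes (y axis; points are estimates of edgeR's fit over 17 mice, bars 1 SE), with APP/PS1/FTnKO minus APP/PS1 in blue, APP/PS1 minus WT in orange and APP/PS1/FTnKO minus WT in purple. Amz1 alone has an APP/PS1 minus WT value of the size of its knockout difference (0.50 and -0.51).

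The plot of log2 differences sets the 3 comparisons side by side. Amz1 (0.50) and Pmepa1 (-0.19) had the largest fitted differences between APP/PS1 and WT mice, and for all of the 10 but Amz1 the knockout lay further from both than these lay from each other. For Hmga1 the log2 ratio of the APP/PS1 to the WT mean was 0.09 with mouse 16975 and -0.14 without it. The comparisons share mice and their agreement is no separate evidence.

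The mean of the transgenic genotypes against WT contains the knockout and APP/PS1 mice on whose difference the genes were chosen, so its values are a description too. On the log2 scale it was 0.16 (SE 0.04) for Panx2, 0.61 (SE 0.15) for Hmga1, -0.34 (SE 0.06) for Pmepa1, -0.14 (SE 0.04) for Snn and 0.24 (SE 0.07) for Amz1. Panx2 had the same mean, 104 CPM, in APP/PS1 and WT mice, and for Hmga1 and Snn too most of the difference lay in the knockout mice, whereas Pmepa1 was at -0.19 (SE 0.07) in APP/PS1 mice against WT and at -0.49 (SE 0.07) in knockout mice. The fit of edgeR called 2 of the 10 higher (Panx2 and Hmga1) and 2 lower (Pmepa1 and Snn) in this mean, where 1.99% and 0.821% of all tested genes were, and nothing is read from these calls since the knockout shift enters them. Among all tested genes 3508 of 17414 had an unadjusted p under 0.05, and 7 of the 10. For Hey1, Furin and Ehd1 the 95% intervals of the difference were -0.18 to 0.03, -0.14 to 0.04 and -0.13 to 0.05.

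With WT mouse 19622 included none of the 10 was called in this mean, Pmepa1 being at -0.19. The RNA integrity number (RIN) was 8.5 to 8.8 in WT but 7.6 to 8.7 in the transgenic mice, and with it as a covariate none was called either, the log2 differences being 0.12 for Panx2, 0.48 for Hmga1, -0.30 for Pmepa1 and -0.15 for Snn. With Hmga1 and Hmga1b summed, the transgenic difference of Hmga1 was 0.03.

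**Figure D4:**
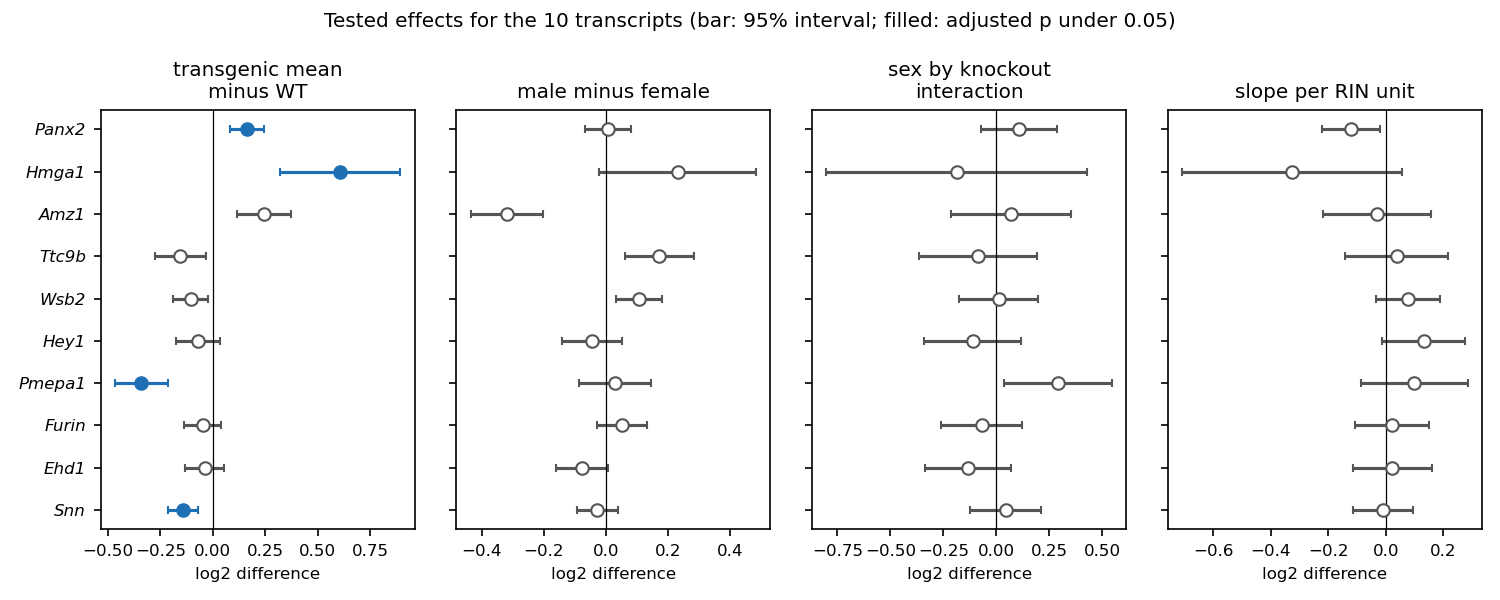
Log2 differences (x axes, each with its own scale) of the 10 transcripts for the mean of the transgenic genotypes minus WT, male minus female, the sex by knockout interaction and the slope per unit of RIN; bars are approximate 95% intervals and filled blue points have an adjusted p under 0.05. Panx2, Hmga1, Pmepa1 and Snn are filled in the first panel, whose values contain the knockout shift on which the genes were chosen, and no point is filled in the others.

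As the plot of tested effects shows, the sexes differed little next to their intervals for most of the transcripts. None of the 10 was called between males and females by edgeR, where 0.0689% of all tested genes were called. Of the 10, 3 had an unadjusted p under 0.05, and 1166 of all 17414 tested genes did. Amz1 came nearest, with a log2 difference of -0.32 in males (SE 0.06, adjusted p = 0.0554), and the mean of the males was below that of the females in APP/PS1 (25.6 against 33.4 CPM), APP/PS1/FTnKO (18.4 against 22.9) and WT mice (19.0 against 22.3). It was called by DESeq2 (adjusted p = 0.000812) and limma-voom (adjusted p = 0.0366). Ttc9b (0.17, adjusted p = 0.575) and Wsb2 (0.11, adjusted p = 0.592) had higher means in males.

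For the difference between the sexes in the effect of the knockout, 0 of the 10 were called by edgeR, DESeq2 or limma-voom, 1 had an unadjusted p under 0.05, and 0% of all tested genes were called by edgeR. That 1 was Pmepa1 (interaction 0.29, SE 0.13, adjusted p = 1), with the means of 43.7 and 59.7 CPM in knockout and APP/PS1 females and of 49.9 and 55.8 in males. For Hmga1 the 95% interval of the interaction was -0.80 to 0.43, so that a large difference between the sexes could not be seen at this number of mice. Nor was any of the 10 called for a slope on RIN by edgeR, DESeq2 or limma-voom, where 8.4% of all tested genes were. Panx2, with a slope of -0.12 per unit (adjusted p = 0.150, edgeR), had the only unadjusted p under 0.05 among the 10. Of all 17414 tested genes, 578 had such a p for the interaction and 4465 for RIN in edgeR.

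The pathways around the 10 genes were tested in the knockout comparison, on genes other than the 10. Of 108 paralogs and pathway genes 106 could be tested and 0 were called by edgeR or limma-voom and 1 by DESeq2, with 11 at an unadjusted p under 0.05 in edgeR, 33 higher and 73 lower, and a median log2 difference of -0.04. Over all 17414 tested genes 2003 had such a p, and 0.184% were called higher and 0.144% lower, so that few or no calls among 106 genes do not set them apart. Around Hey1, 16 of 19 Notch ligands, receptors, cofactors and targets had lower values in the knockout (median -0.11) and none was called by edgeR. Hes5, a Notch target like Hey1, was lowest (10.998 against 17.6 CPM, log2 difference -0.68, SE 0.16, adjusted p = 0.0774), and was the gene that DESeq2 called (adjusted p = 0.00472). Chosen after their values were seen, the targets Hes1 (-0.28, adjusted p = 0.365) and Nrarp (-0.32, adjusted p = 0.381) and the receptor Notch4 (-0.44, adjusted p = 0.347) also had an unadjusted p under 0.05.

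Around Pmepa1, 16 of 19 TGF-β ligands, receptors, SMADs and their regulators had lower values in the knockout (median -0.08) and none was called, with Smad3, which carries the signal (-0.17, adjusted p = 0.264), and Smad7, which inhibits it (-0.22, adjusted p = 0.317), at an unadjusted p under 0.05. The 7 partners of Wsb2 in the Cullin-5 ligase lay between Cul5 (-0.06, SE 0.05) and Eloc (0.05, SE 0.04), with 3 higher and 4 lower. Its paralog Wsb1 had 133 CPM in knockout and 122 in APP/PS1 mice (0.13, adjusted p = 0.601). Of 17 genes of endocytic recycling, the pathway of Ehd1, 6 were higher and 11 lower, and of its paralogs Ehd2 (-0.18), Ehd3 (0.02) and Ehd4 (-0.20) none was called (adjusted p = 0.608, 0.925 and 0.458). Among 16 substrates of Furin 5 were higher and 11 lower with 0 at an unadjusted p under 0.05, and the convertases Pcsk2 (-0.21, adjusted p = 0.406) and Pcsk4 (0.31, adjusted p = 0.355) were among the paralogs that had one under it. Of 10 genes of ATP release and purinergic signalling, set beside Panx2, 2 were higher and 8 lower with 0 under it.

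**Figure D5:**
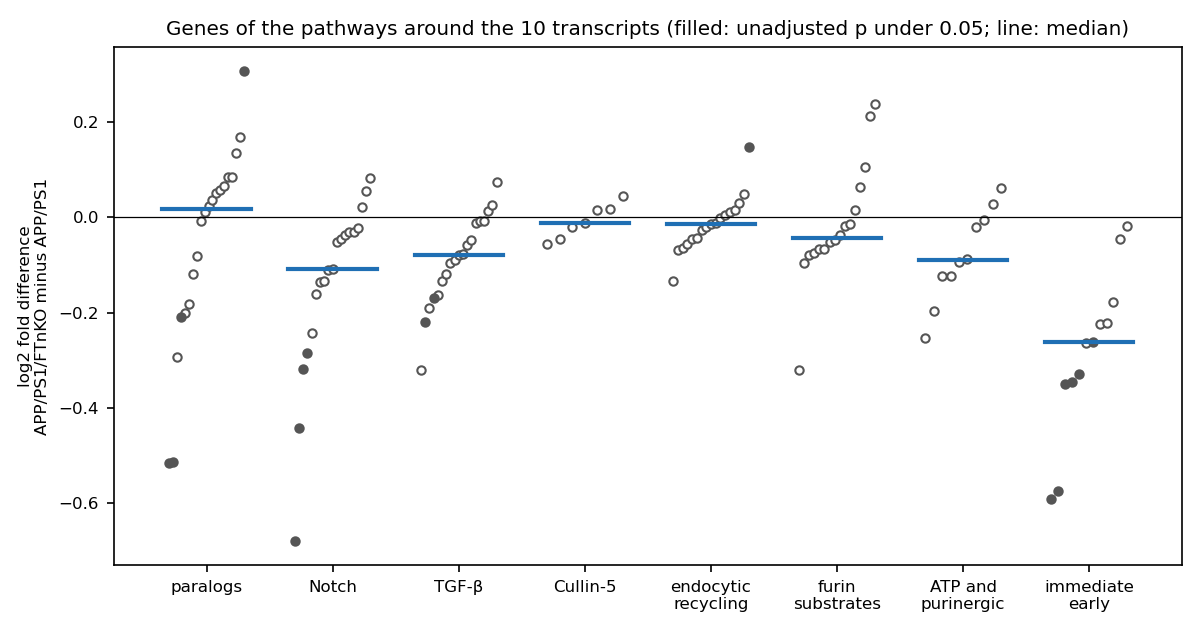
Log2 differences, knockout minus APP/PS1 mice (y axis), of the paralogs, pathway genes and immediate early genes (x axis, by list); each point is a gene, filled where its unadjusted p is under 0.05, and the blue lines are medians. Most Notch and TGF-β genes lie below 0, with Hes5 lowest at -0.68, and no point has an adjusted p under 0.05.

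In the plot of the pathway genes the medians of all lists but the paralogs lie below 0, the lowest being the immediate early genes at -0.26, with 12 of 12 lower, 6 at an unadjusted p under 0.05 and 0 called by edgeR. Nor were the nearest tested genes on either side of the 10 called by edgeR: of 20 neighbours 6 were higher and 14 lower, 4 had an unadjusted p under 0.05, and DESeq2 called 1. This was Map3k10, which overlaps Ttc9b by 971 bases on the opposite strand (log2 difference -0.20, SE 0.04, adjusted p = 0.0567 in edgeR and 0.00147 in DESeq2). Reads from such an overlap can be told apart only if counting used the strand, which is not stated.

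Markers of cell types were set beside these differences. The summed CPM of 6 excitatory neuron markers was 3810 to 5568 in APP/PS1/FTnKO, 4611 to 6684 in APP/PS1 and 5129 to 6924 in WT mice, with 4 of 6 markers lower in the knockout, 2 at an unadjusted p under 0.05 and 0 called. That of 6 microglial markers was 305 to 488, 401 to 626 and 302 to 341, with all 6 lower in the knockout than in APP/PS1 mice, 4 at an unadjusted p under 0.05 and 0 called by edgeR. Choroid plexus markers summed to 2.23 to 11.9 CPM in knockout mice (median 3.60) and to 3.92 to 24.0 in 5 of the APP/PS1 mice, with 437 in APP/PS1 mouse 19554 (median of the 6, 5.49). In WT mice they summed to 3.05 to 4.14 CPM in 4 mice and to 66.8 in mouse 19053. All 6 interneuron markers were higher in the knockout than in APP/PS1 mice and 5 of 6 astrocyte markers lower, with 0 called. Striatal markers summed to 514 to 1227 CPM in knockout, 584 to 1533 in APP/PS1 and 587 to 1205 in WT mice. Sums for oligodendrocytes, their precursors, endothelium and blood are not given here. The part of any of these in the differences of the 10 transcripts was not tested.

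Some other genes followed the 10 closely over the 17 mice, as a description. Hsf4 was the gene most like Panx2 (r = 0.93) and the second most like Hmga1 (r = 0.87), Nr2f6 that most like Hey1 (r = 0.88), Fam117a most like Amz1 (r = 0.86), Sbk1 most like Pmepa1 (r = 0.90), Vasn most like Snn (r = 0.89) and Tm2d2 most like Ehd1 (r = 0.83), while for Furin it was Wsb2 (r = 0.85). With genotype and sex taken out, B3gat1 was among the closest 2 for both Ttc9b (r = 0.88) and Wsb2 (r = 0.89), Nr2f6 was still so for Hey1 (r = 0.84), and Kif27 was closest to Amz1 (r = 0.91).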

How the data were processed

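Stranded mRNA libraries of 18 mice were sequenced as paired reads, which the authors trimmed with Trimmomatic 0.33, aligned to GRCm38 with HISAT2 2.1.0 and counted with featureCounts. The authors deposited unnormalized counts for each Ensembl gene in each mouse. The sources used here do not give the featureCounts version, annotation, strand setting or treatment of reads with several matches. The members and gene lists were chosen with earlier results of these data known.

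Counts were analysed in R 4.3.3 with edgeR 4.0.16 (TMM, filterByExpr at a minimum of 10 counts, quasi-likelihood test, 3 genotypes and sex in 1 fit of 17 mice, Benjamini-Hochberg threshold 0.05). WT mouse 19622 was left out, as the study left out a WT outlier. GENCODE M21 gave positions for 99.5% of genes. Alternatives were DESeq2 1.42.0, limma-voom 3.58.1, RLE scaling, other filters, no sex term, RIN as a covariate, all 18 mice, the 12 transgenic mice, and each mouse left out. Fits of mice with a RIN of at least 8, of 18 mice with DESeq2 and with Hmga1 and Hmga1b summed were added after the data had been seen. All tools were tested on simulated data. Replicates are separate mice. The plan was to name the 10, Fntb, paralogs, pathway genes and neighbours past the threshold, and the genes most correlated. Hes1, Nrarp, Notch4, Smad3, Smad7, Cul5, Eloc, Gna12, Arc and Egr1 were named outside this plan. None of these passed the threshold in edgeR, and they were named with their values known. The 10 transcripts had 150 or more counts in every mouse but 19622. 0 columns were unused. Some items are not reported here.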

Additional observations from a re-analysis of the deposited data

Results flagged for a closer look

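Of 30 groups examined (10 transcripts in 3 genotypes, 5 or 6 mice each), a single mouse lay far from the rest of its genotype in 1. Hmga1 in APP/PS1 mouse 16975, a male with a RIN of 7.7, had 19.7 CPM against 8.82 to 10.4 in the other 5 APP/PS1 mice. On the log2 CPM scale its gap to the nearest mouse was 0.793 of the range of the group. The threshold used for such gaps is passed by chance in about 1 of 20 groups. Without this mouse the mean of Hmga1 in APP/PS1 mice was 9.64 ± 0.71 CPM (SD, n = 5) in place of 11.3 ± 4.17 (n = 6), and the log2 ratio of the group means of APP/PS1/FTnKO to APP/PS1 mice was 1.23 in place of 1.001. The level of Hmga1 and Hmga1b summed in this mouse, 28.9 CPM, was within the 23.7 to 28.9 CPM of the other APP/PS1 mice, and its share of Hmga1 among these reads, 68.4%, was not within theirs.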

How the results depend on the processing

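The log2 differences of the 10 transcripts between knockout and APP/PS1 mice kept their sign in all alternatives, as their choice on this difference makes likely, and, apart from Hmga1 at 0.32 with Hmga1b summed, moved by less than 1 residual SD between mice. For the transgenic mean against WT, 4 transcripts were called, against 5 with DESeq2 or a minimum count of 50 (Amz1 added), 0 with 18 mice (edgeR or DESeq2) or RIN as covariate, 2 with limma-voom, no filter or after leaving out the mice under a RIN of 8, and 1 to 4 with a mouse left out (Pmepa1 in 17 of 17 fits, Hmga1 in 9, Panx2 in 4, Snn in 3, Amz1 in 2). Ttc9b reversed there to 0.036 with 18 mice and 0.031 with 18 mice in DESeq2. With Hmga1 and Hmga1b summed 3 were called in this mean, and Hmga1 was not among them. Nothing is read from any of these calls, since the knockout shift on which the genes were chosen enters this mean. Between the sexes 0 were called, against 1 (Amz1) with DESeq2, limma-voom, no filter or a minimum count of 50, and 0 to 1 with a mouse left out (1 without 18973 or WT mouse 19721). For the interaction and for RIN the count stayed at 0 with each mouse left out. Pathway genes called were 0, against 1 (Hes5) with DESeq2 or no filter, and 0 to 1 with a mouse left out (1 without APP/PS1/FTnKO mouse 19720). Neighbours called were 0, against 1 (Map3k10) with DESeq2, a minimum count of 50 or RIN as covariate, and 0 to 1 with a mouse left out (1 without 19720 or APP/PS1 mouse 19619).

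Of all genes, 57 were called between the transgenic genotypes, against 2 with 18 mice, 37 with 18 mice in DESeq2, 254 with DESeq2, 104 with no filter, 261 with RIN as covariate, 5 with only the 12 transgenic mice fitted, 14 with a RIN of at least 8, and 10 (without APP/PS1 mouse 19554) to 81 (without 16975) with a mouse left out. For the transgenic mean 489 were called, against 1011 with DESeq2, 844 with no filter, 132 with RIN as covariate, 200 with a RIN of at least 8, 970 with 18 mice in DESeq2, and 164 to 813 with a mouse left out (the lowest without WT mouse 18944, the highest without 19744 of APP/PS1). Between the sexes 12 were called, against 31 with DESeq2, 50 with no filter, and 9 to 14 with a mouse left out. For the interaction 0 were called, against 1 with DESeq2, 43 with no filter, and 0 to 1 with a mouse left out. For RIN 1463 were called, against 26 with 18 mice, 549 with 18 mice in DESeq2, 0 with a RIN of at least 8, and 106 to 1910 with a mouse left out. The causes were not tested. No paired analysis was possible because the replicate numbers used here only name mice in order and the labels tie no mice of different genotypes together.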

Other observations

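Fntb, the targeted gene, was at 2 levels among the mice without Cre. In APP/PS1 mice it had 14.2, 14.3, 14.6 and 17.1 CPM in 4 mice and 28.7 and 32.1 in mice 19553 and 19554. In WT mice it had 14.1, 16.8 and 16.9 CPM in 3 mice and 30.8 and 32.2 in mice 19721 and 19718. All 6 APP/PS1/FTnKO mice were at 7.84 to 14.7 CPM, so that the lower level of the other genotypes reaches their range. The cause was not tested, the genotypes were taken from the labels, and a relation of Fntb to the 10 transcripts was not tested.

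The immediate early genes, which neuronal activity induces, had summed levels of 688 to 1343 CPM in APP/PS1/FTnKO mice, 950 to 1328 in APP/PS1 mice and 1196 to 1573 in WT mice. Arc, a synaptic regulator, had means of 195, 295 and 379 CPM in that order (log2 difference between the transgenic genotypes -0.59, SE 0.20, adjusted p = 0.265, edgeR), and Egr1, a zinc finger factor, had 254, 324 and 397 (-0.35, SE 0.14, adjusted p = 0.325). Both were chosen after their values were seen.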
